A study of Mus musculus with 62 samples.

Results

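Serotonin receptor transcripts were examined in mouse punches of 3 brain regions. They were the suprachiasmatic nucleus (SCN), which holds the circadian pacemaker, the nucleus accumbens (NAc), a ventral striatal reward region, and prefrontal cortex (PFC). The genes were Htr1a, Htr1b, Htr1d, Htr1f, Htr2a, Htr2c, Htr4, Htr5a, Htr6 and Htr7, and a gene was included where its Ensembl identifier had a row in the deposited count tables. Of the 10 genes, 9 had a row, out of 12483 genes in all. All 9 were in the NAc/PFC table (11569 genes), and 7 were also in the SCN table (12047 genes). Htr1d and Htr1f have no row in the SCN table, and Htr6 has none in either table, so these values were not analysed here.

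The study asked whether circadian rhythm disruption (CRD), repeated reversals of the light cycle, leaves lasting changes in circadian and reward-related regions. The libraries came from individual C57BL/6J mice, bred in house from Jackson Laboratory stock, males and females together. Tissue was taken at ZT6, in the light phase, about a month after CRD or matched cage handling had ended. The submitted protocol names mice with CRD in adolescence or in adulthood and their controls, whereas the study's methods name only adolescent CRD for this tissue. The labels do not say which library is from a CRD mouse or of which sex, so CRD and control mice of both sexes could not be separated within a region, and no effect of CRD, sex or age was tested. There were 19 SCN, 26 NAc and 17 PFC libraries from 26 mice, and 17 mice gave both NAc and PFC. Replicates are separate mice.

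Serotonin is made by neurons of the raphe nuclei of the brainstem, whose axons reach nearly all of the forebrain, among them a dense projection to the SCN. Except for the ion channel formed by the Htr3 genes, its receptors are coupled to G proteins. The Htr1 and Htr5 receptors act through Gi/o and lower cAMP, the Htr2 receptors act through Gq and phospholipase C, and Htr4, Htr6 and Htr7 act through Gs and raise cAMP. In the SCN, serotonin is known for modulating the response of the clock to light, and in the NAc and PFC for shaping dopamine release, reward and impulsivity.

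Gene positions are those of GENCODE M21 on GRCm38, and the 9 genes are annotated as protein-coding. Of the Gi/o receptors, Htr1a (ENSMUSG00000021721) lies on the plus strand at chr13:105443639-105448122 and is a single exon block. Htr1b (ENSMUSG00000049511) lies on the minus strand at chr9:81628291-81633828, and its exons overlap those of D430036J16Rik on the opposite strand. The strand setting of the counting is not given in the sources used here, and reads on the shared bases cannot be told apart without strand. Htr1d (ENSMUSG00000070687) is at chr4:136423524-136444398 and Htr5a (ENSMUSG00000039106) at chr5:27842149-27855088, both on the plus strand. Htr1f (ENSMUSG00000050783) is at chr16:64924729-65105854 on the minus strand. The Gq receptors Htr2a (ENSMUSG00000034997) and Htr2c (ENSMUSG00000041380) are on the plus strand at chr14:74640840-74709494 and chrX:146962513-147197277. Of the Gs receptors, Htr7 (ENSMUSG00000024798) is on the minus strand at chr19:35958734-36057507. The identifier of Htr4 is ENSMUSG00000026322.

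The sequences directly before the start of transcription are shown for Htr1b, Htr1d, Htr2c and Htr5a, because the NAc and PFC libraries of these genes did not overlap, as given further on, and the whole window of 250 bases lay outside annotated exons. They are RefSeq promoters on GRCm38.p6, whose starts can differ from the gene starts above. For Htr5a the window ends at 27841946, upstream of the gene start at 27842149. The sequences are written 5′ to 3′ on the strand of the gene, and capitals mark a GC box.
Htr1b (chr9:81633833-81634082, minus strand): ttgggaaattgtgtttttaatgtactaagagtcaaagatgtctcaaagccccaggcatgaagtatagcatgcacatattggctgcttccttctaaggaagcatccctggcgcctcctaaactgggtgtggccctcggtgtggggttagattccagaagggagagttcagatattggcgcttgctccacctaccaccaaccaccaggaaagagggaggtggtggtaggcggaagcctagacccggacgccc
Htr1d (chr4:136423274-136423523, plus strand): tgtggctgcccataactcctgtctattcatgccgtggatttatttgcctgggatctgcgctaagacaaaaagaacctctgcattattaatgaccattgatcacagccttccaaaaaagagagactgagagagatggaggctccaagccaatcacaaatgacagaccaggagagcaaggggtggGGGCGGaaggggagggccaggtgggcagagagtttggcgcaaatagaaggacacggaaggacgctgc
Htr2c (chrX:146962263-146962512, plus strand): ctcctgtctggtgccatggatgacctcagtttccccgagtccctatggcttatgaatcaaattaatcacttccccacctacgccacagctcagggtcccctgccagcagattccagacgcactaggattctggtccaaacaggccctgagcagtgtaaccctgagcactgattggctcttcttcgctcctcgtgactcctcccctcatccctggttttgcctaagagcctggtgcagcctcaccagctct
Htr5a (chr5:27841697-27841946, plus strand): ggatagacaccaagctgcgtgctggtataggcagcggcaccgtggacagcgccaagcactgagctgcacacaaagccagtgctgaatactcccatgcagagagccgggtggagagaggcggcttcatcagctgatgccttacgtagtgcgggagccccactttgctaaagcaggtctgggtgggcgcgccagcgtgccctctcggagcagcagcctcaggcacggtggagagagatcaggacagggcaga

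The 4 motifs below were searched on both strands, and none overlaps another in these windows. The GC box GGGCGG, the binding sequence of Sp1, was found in the window of Htr1d and in 32.7% of 32851 RefSeq promoters of the same length. The E-box CACGTG, bound by CLOCK and BMAL1, is in 6.02% of those promoters, the cAMP response element TGACGTCA in 1.55% and the TATA box TATAAA in 12.4%, and none of these was found in the windows shown. A match says only that the letters are present.

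SCN libraries held 16496666 to 35389742 counts each, NAc libraries 28879724 to 60009482 and PFC libraries 31216225 to 50333579, and mitochondrial and ribosomal RNA genes held between 31.5% and 75.2% of them. Levels are therefore given as CPM, a gene's count scaled to a common library size, on a scale set jointly for all libraries from 10688 nuclear protein-coding genes of both tables. Markers fitted the punch labels: the summed level of 9 striatal genes was 4203 to 9980 CPM in the NAc and 186 to 416 CPM in the PFC. The 6 cortical neuron genes summed to 1968 to 2324 CPM in the PFC, and 9 SCN genes to 203 to 1048 CPM in the SCN. The NAc punches also held cortical transcripts, from 23.8 to 1142 CPM, and SCN J1199 held 2009 CPM of the 7 striatal genes in its table against an SCN median of 352 CPM. Of the 5 listed genes of serotonin neurons, Tph2, Slc6a4 and Fev have no row in either table. Ddc (44.1 to 78.8 CPM) and Slc18a2 (5.60 to 29.9 CPM) have a row in the SCN table alone. Of the choroid plexus genes, which would carry Htr2c from outside neurons, Ttr, Folr1, Aqp1, Kcnj13, Otx2, Sostdc1 and Slc4a5 have no row either. The tables are filtered, so a missing row is not a measured absence. In bulk tissue, fewer cells of a type and less RNA per cell cannot be told apart.

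The NAc and PFC differed in 8 of the 9 receptor transcripts. Htr1d, Htr4, Htr2c, Htr1b and Htr1f were higher in the NAc, from 42.7-fold for Htr1d to 2.01-fold for Htr1f, and Htr1a, Htr5a and Htr2a were higher in the PFC, by 2.04-fold, 1.92-fold and 1.43-fold. Htr7 did not pass the test. A gene was called where its adjusted p was below 0.05 and it differed at least 1.2-fold in edgeR's quasi-likelihood test over all 11569 genes. Under that rule 23.7% of all genes were higher in the NAc, against 5 of 9 receptors, and 21.7% were lower, against 3 of 9. The 5 include Htr1d, whose row was probably kept by the study's filter through the NAc, which would fix its direction. Htr4, with PFC counts near the limit of that filter, may have been kept in the same way. The median size of the log2 fold change was 1.03 over the 9 receptors and 0.24 over all genes tested.

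**Figure D1:**
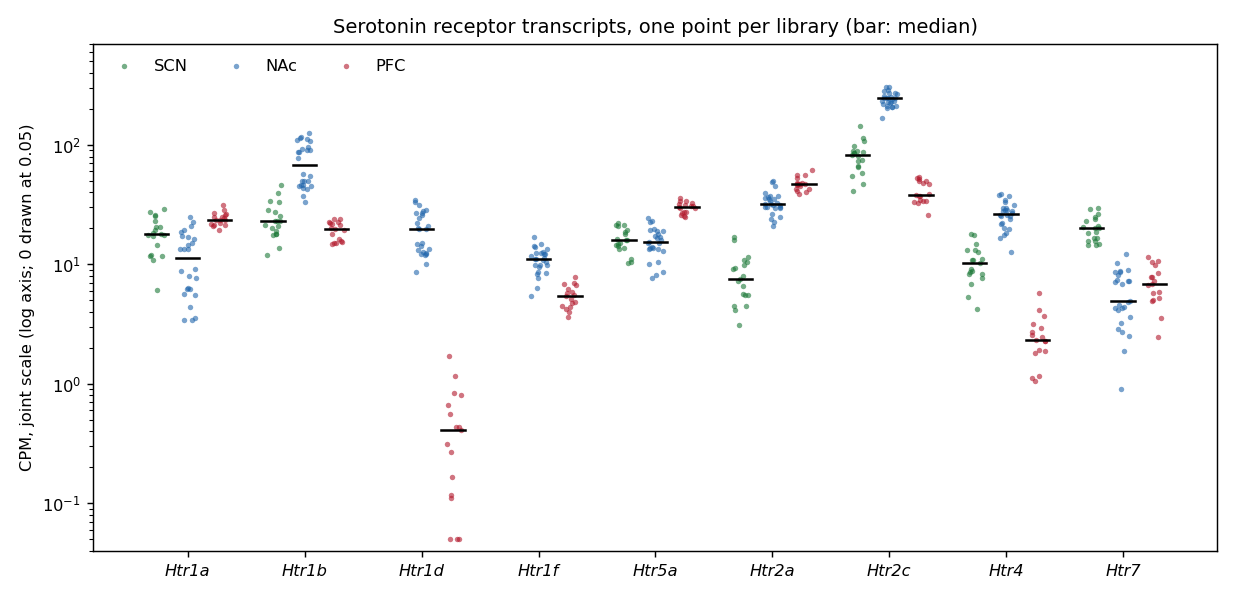
Level of each receptor transcript in every library, in CPM on the joint scale (log axis, with counts of 0 drawn at 0.05), for the SCN (n = 19), NAc (n = 26) and PFC (n = 17), where a point is a library and a bar the median. Htr2c in the NAc, with a median of 245 CPM, was the highest, and Htr1d in the PFC, with a median of 0.41 CPM, the lowest; Htr1d and Htr1f have no SCN row.

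Of the Gi/o receptors, Htr1d, a terminal receptor and target of triptans, had 8.57, 19.8 and 34.7 CPM as lowest, median and highest level in the NAc, and 0, 0.41 and 1.71 CPM in the PFC. The PFC counts behind this were 0 to 28 reads, with 3 libraries at 0. No library of the NAc fell into the PFC range. On the log2 scale the fold change of NAc over PFC was 5.42 (SE 0.30, edgeR adjusted p = 7.7e-21), and the transcript was higher in the NAc of all 17 mice with both regions. Because the PFC counts are so low, the size of this fold depends on few reads. Such counts would not pass the study's filter on CPM by themselves, so the row was probably kept through the NAc. A gene kept that way could only be higher in the NAc, so its direction and adjusted p are not independent support.

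Htr1b, the receptor on axon terminals that restrains transmitter release, had 33.2, 67.6 and 125 CPM in the NAc and 14.9, 19.98 and 24.1 CPM in the PFC (lowest, median, highest). The groups did not overlap. NAc over PFC, the log2 fold change was 1.92 (SE 0.16, edgeR adjusted p = 1.1e-14), with the same direction in 17 of 17 mice. The NAc libraries themselves were spread 3.76-fold, from NAc J1199 at the bottom to NAc J1018 at the top.

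Htr1f, another triptan-sensitive receptor, had 5.40, 11.1 and 16.9 CPM in the NAc and 3.61, 5.43 and 7.85 CPM in the PFC. The ranges overlapped, but 23 of 26 NAc libraries lay above every PFC library. Between the regions it had a log2 fold change of 1.01 (SE 0.11, edgeR adjusted p = 4e-11), with 17 of 17 mice higher in the NAc.

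Htr1a, which inhibits raphe neurons as an autoreceptor and cortical pyramidal neurons as a postsynaptic receptor, had 3.40, 11.3 and 25.02 CPM in the NAc and 19.3, 23.6 and 31.2 CPM in the PFC. All but 4 of the 26 NAc libraries lay below the PFC range. The log2 fold change of NAc over PFC was -1.03 (SE 0.19, edgeR adjusted p = 1.1e-05), and 17 of 17 mice were lower in the NAc. With the mouse as a replicate block in the 17 mice, the log2 fold change was -1.54.

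Htr5a, a Gi/o receptor of wide forebrain expression, had 7.72, 15.3 and 24.7 CPM in the NAc and 24.7, 30.1 and 36.3 CPM in the PFC. The highest NAc library lay just below the lowest PFC library. Its log2 fold change was -0.94 (SE 0.10, edgeR adjusted p = 8.9e-11), again with 17 of 17 mice lower in the NAc.

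Of the Gq receptors, Htr2c, whose transcript is edited by adenosine deaminases, had 169, 245 and 305 CPM in the NAc and 25.7, 38.1 and 54.1 CPM in the PFC. The lowest NAc library was far above the highest PFC library. NAc over PFC, the log2 difference was 2.56 (SE 0.08, edgeR adjusted p = 1.1e-29), and its direction was the same in 17 of 17 mice. Clic6, the 1 choroid plexus gene of 10 with a row in the NAc/PFC table, had 9.21 to 25.5 CPM in the NAc and 0 to 1.04 CPM in the PFC (log2 fold change 5.26, SE 0.21, edgeR adjusted p = 2.9e-26), and the part of choroid plexus in the Htr2c difference was not tested.

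Htr2a, the receptor of cortical pyramidal neurons on which psychedelics act, had 21.0, 32.1 and 49.5 CPM in the NAc and 38.9, 47.2 and 61.5 CPM in the PFC. The ranges overlapped, and 22 of 26 NAc libraries lay below every PFC library. NAc over PFC, it had a log2 fold change of -0.52 (SE 0.08, edgeR adjusted p = 2.4e-07), with 17 of 17 mice lower in the NAc. The 2 Gq receptors thus differed between the regions in opposite directions.

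Of the Gs receptors, Htr4, known from the basal ganglia and limbic areas, had 12.8, 26.4 and 38.9 CPM in the NAc and 1.05, 2.32 and 5.78 CPM in the PFC, without overlap. Its log2 difference was 3.38 (SE 0.16, edgeR adjusted p = 5.5e-23), with 17 of 17 mice higher in the NAc. The PFC counts of Htr4 were 15 to 75 reads (median 41), in libraries with a median total of 43361149 counts. That is near the study's limit on CPM, so the row may have been kept through the NAc. In that case its direction and adjusted p are not independent support. Htr7, known from the thalamus and hypothalamus, had 0.90, 4.90 and 12.3 CPM in the NAc and 2.48, 6.91 and 11.5 CPM in the PFC, and the ranges largely overlapped. Its log2 fold change was -0.28 (SE 0.20, 95% interval -0.68 to 0.12, edgeR adjusted p = 0.23), with 10 of 17 mice lower in the NAc and 7 higher. With the mouse as a replicate block it was -0.55 with an edgeR adjusted p of 0.0499, and without the 8 NAc libraries whose Slc17a7 level was above 20% of the PFC median it was -0.55 with an edgeR adjusted p of 0.0259.

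**Figure D2:**
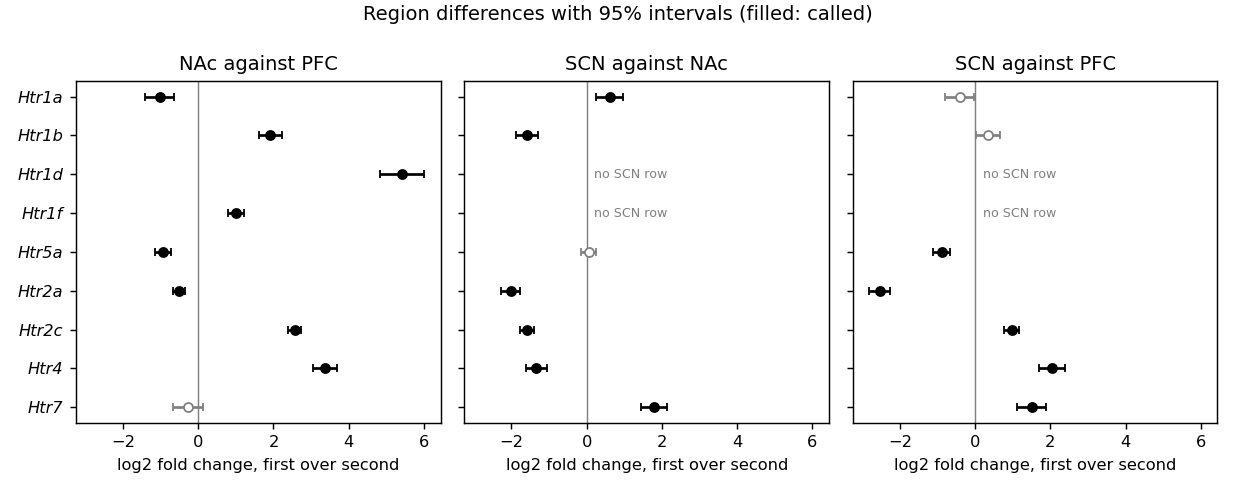
Log2 fold change of each receptor transcript between regions, first-named region over second, with unadjusted 95% intervals from the edgeR fit, where filled points passed the adjusted test and the fold limit. Htr7 is above 0 in both SCN comparisons (1.79 over the NAc and 1.504 over the PFC), and Htr2a is below 0 in both (-2.02 and -2.54).

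The SCN libraries were set against the other regions in a fit of all 62 libraries over the 11133 genes in both tables. The SCN was counted and filtered as a table of its own, so region and table cannot be told apart. Htr7 was higher in the SCN than in either other region and Htr2a lower than in either, both without overlap of libraries. Of all genes, 33.1% were higher in the SCN than in the NAc, against 2 of 7 receptors, and 31% were lower, against 4 of 7. Against the PFC, 33.7% of genes were higher in the SCN, with 3 of 7 receptors, and 31% lower, with 2 of 7. The median size of the log2 fold change was 1.58 over the 7 receptors and 0.39 over all genes against the NAc, and 0.97 and 0.41 against the PFC.

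Htr7, a receptor through which serotonin agonists shift the SCN clock, had 14.5, 20.1 and 29.5 CPM in the SCN as lowest, median and highest level. All 19 SCN libraries lay above every NAc and PFC library. The log2 fold change was 1.79 over the NAc (SE 0.17, edgeR adjusted p = 1.5e-14) and 1.504 over the PFC (SE 0.20, edgeR adjusted p = 4e-10). It was higher in the SCN of 19 of 19 mice that also gave NAc and 12 of 12 that also gave PFC.

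Htr2a had 3.14, 7.49 and 16.8 CPM in the SCN. Every SCN library lay below every NAc and PFC library, also SCN J1199, which held the highest level. Its log2 difference was -2.02 over the NAc (SE 0.13, edgeR adjusted p = 1.6e-22) and -2.54 over the PFC (SE 0.14, edgeR adjusted p = 5.5e-26).

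Htr2c had 41.2, 83.2 and 143 CPM in the SCN, between the other regions. Its log2 fold change was -1.59 over the NAc (SE 0.10, edgeR adjusted p = 1.4e-23), without overlap, and 0.97 over the PFC (SE 0.10, edgeR adjusted p = 4.8e-13), with 17 of 19 SCN libraries above the PFC range. Only 3 of the 10 choroid plexus genes, Kl, Clic6 and Prlr, had a row in the SCN table, with a summed level of 39.9 to 155 CPM, and their part in the Htr2c level was not tested. Htr4, with 4.27, 10.3 and 17.98 CPM in the SCN, also lay between the other regions. Its log2 fold change was -1.34 over the NAc (SE 0.14, edgeR adjusted p = 8.7e-13) and 2.04 over the PFC (SE 0.17, edgeR adjusted p = 8e-17). As the PFC counts of Htr4 were near the study's limit on CPM, the filter may also have fixed its direction over the PFC. SCN J1199, the library with the most striatal RNA, held the highest SCN level of Htr1b, Htr2a, Htr2c and Htr4; without it and SCN J1140, each of these differences kept its direction and its call.

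Htr5a had 10.2, 15.9 and 22.2 CPM in the SCN, a range close to that of the NAc. The log2 fold change over the NAc was 0.05 (SE 0.10, 95% interval -0.15 to 0.26, edgeR adjusted p = 0.64), and over the PFC it was -0.89 (SE 0.11, edgeR adjusted p = 3.4e-10), without overlap. Htr1b had 11.96, 23.0 and 45.9 CPM in the SCN. Its log2 fold change was -1.58 over the NAc (SE 0.15, edgeR adjusted p = 8.9e-15) and 0.33 over the PFC (SE 0.16, 95% interval 0.01 to 0.65), where it did not pass (edgeR adjusted p = 0.058).

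Htr1a had 6.15, 18.1 and 29.2 CPM in the SCN. The log2 fold change over the NAc was 0.62 (SE 0.18, edgeR adjusted p = 0.002), with 14 of 19 mice higher in the SCN. In the upper range of mouse numbers alone it was 0.48 with an edgeR adjusted p of 0.0557, and without the 8 NAc libraries high in Slc17a7 it was 0.93. Over the PFC it was -0.41 (SE 0.20, edgeR adjusted p = 0.058), which did not pass. With the mouse as a replicate block this difference was -0.65 with an edgeR adjusted p of 0.0128, and without SCN J1199 and SCN J1140 it was -0.45 with an edgeR adjusted p of 0.0465.

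Levels of different genes were compared as CPM per kb of exon. In the NAc, Htr2c led with a median of 26.3 CPM per kb, followed by Htr1b with 14.3. Htr1d (6.18), Htr2a (5.73) and Htr4 (5.38) formed the middle, where neighbours changed places between libraries: Htr1d was above Htr2a in 15 of 26 and Htr2a above Htr4 in 12 of 26. Htr1f (4.32), Htr5a (2.85), Htr1a (2.53) and Htr7 (1.44) followed. In the PFC, Htr2a led with 8.42 CPM per kb and did not overlap Htr5a (5.60), the only neighbours without overlap in any region. Htr5a and Htr1a (5.27) were not separated, with Htr5a higher in 9 of 17 libraries, and neither were Htr1b (4.23) and Htr2c (4.08), where Htr1b had the higher median but the higher level in only 4 of 17 libraries. Htr1f (2.104), Htr7 (2.03), Htr4 (0.47) and Htr1d (0.13) were at the low end. In the SCN, Htr2c (8.91) was above Htr7 (5.90) in 17 of 19 libraries, and Htr1b (4.86), Htr1a (4.04), Htr5a (2.95), Htr4 (2.09) and Htr2a (1.34) followed, with overlap between all neighbours.

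**Figure D3:**
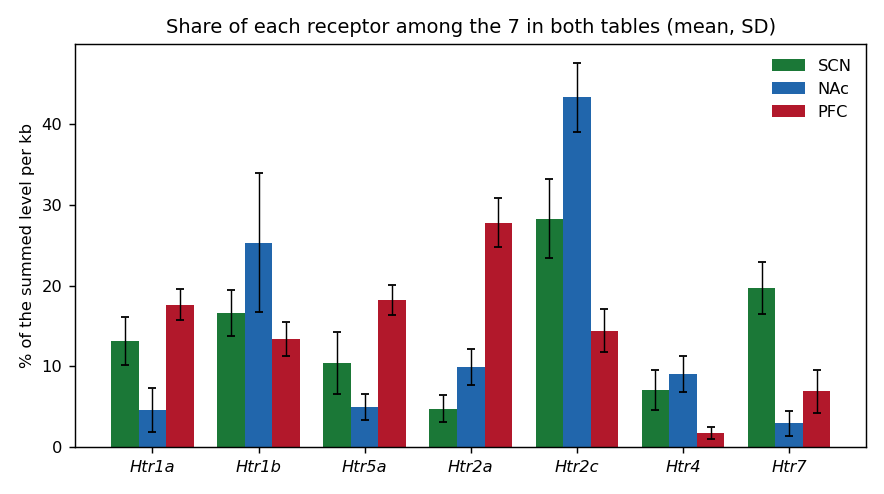
Share of each receptor in the summed CPM per kb of the 7 receptors in both tables, as mean with SD over libraries in the SCN (n = 19), NAc (n = 26) and PFC (n = 17). Htr2c took 43.4% in the NAc, Htr2a 27.8% in the PFC, and Htr7 19.7% in the SCN against 2.94% in the NAc and 6.91% in the PFC.

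By coupling, the makeup of these 7 receptors differed between regions, as a share of their summed CPM per kb. The Gq receptors held a median of 53.5% in the NAc (45.7 to 61.9%), 43.3% in the PFC (33.4 to 46.9%) and 33.6% in the SCN (24.6 to 41.1%). The Gs receptors Htr4 and Htr7 held 25.6% in the SCN (21.7 to 37.1%), above every library of the NAc (6.39 to 19.3%) and PFC (4.02 to 13.0%). The Gi/o receptors Htr1a, Htr1b and Htr5a held medians of 49.1% (PFC), 40.6% (SCN) and 33.8% (NAc). The lead of Gq over Gi/o in the NAc depended on leaving out Htr1d and Htr1f, which have no SCN row. With them added, the NAc medians were 44.1% for Gi/o and 44.85% for Gq. In the PFC the Gi/o receptors then held a median of 52.4%, still the largest share. These shares are descriptions and were not tested.

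Within the NAc, the libraries fell into separate sets by the level of Htr1b, which was seen in the plotted values and not planned. There were 13 libraries with 33.2 to 56.9 CPM and 13 with 78.2 to 125 CPM, with none between. The widest gap in Htr1a divided the 26 libraries in the same way: the set low in Htr1b held 13.4 to 25.02 CPM of Htr1a and the set high in Htr1b 3.40 to 9.23 CPM. Htr1d placed 25 of 26 libraries on the matching side of its own gap, with 8.57 to 19.78 CPM in the low Htr1b set and 19.7 to 34.7 CPM in the other. Htr7 placed 23 of 26, with 4.84 to 12.3 and 0.90 to 6.84 CPM. The gap used for Htr7 was its widest with at least 6 libraries on either side, and a wider one, above NAc J1018 alone, was passed over. Htr4, with medians of 26.8 and 25.98 CPM, and Htr2c, with medians of 233 and 248 CPM, did not follow the sets. Since the sets were chosen from these values, no test was made between them.

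Each set held 6 libraries of the lower and 7 of the upper range of mouse numbers. The 6 cortical neuron genes summed to 167 to 1142 CPM (median 503) in the set low in Htr1b and to 23.8 to 313 CPM (median 82.4) in the set high in it, and all 8 libraries above 20% of the PFC median of Slc17a7 were in the former. The part of cortical RNA in the receptor levels was not tested, and whether the sets follow CRD, sex or age was not analysed here. All 26 NAc libraries lay above the PFC range for Htr1b and Htr1d, so this holds in either set, as it would for any split, and says nothing about cortical RNA.

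Receptor transcripts in the NAc were also compared with a score of cortical neurons, the mean z-score of Slc17a7, Neurod6, Neurod2, Tbr1, Cux2 and Fezf2. Over all 26 libraries, 7 of 9 receptors passed a permutation test adjusted over the 25 relations of the 3 regions, but a correlation over both sets mixes the difference between them with the spread inside them, so r is given within each set of 13 libraries, first for the set low in Htr1b. For Htr5a it was 0.56 and 0.60, and for Htr2a 0.61 and 0.635, so these receptors, both with higher PFC levels, had a positive r inside both sets. For Htr4 it was -0.76 and -0.54. Over all libraries Htr5a had r = 0.78 (rho = 0.74, adjusted p = 6.2e-05 by permutation) and Htr2a 0.47 (rho = 0.48, adjusted p = 0.028 by permutation), whereas Htr4 did not pass with -0.38 (rho = -0.40, adjusted p = 0.093 by permutation), a call that changed with the make-up of the score. Without the 2 libraries with the most distant scores their r was 0.69, 0.51 and -0.38, and in the lower and upper range of mouse numbers it was 0.86 and 0.69, 0.44 and 0.53, and -0.39 and -0.32. Without NAc J1199 and NAc J1018, Htr2a had r = 0.41 (adjusted p = 0.085 by permutation), which did not pass.

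Of the other relations, those of Htr1b and Htr1d kept their sign in both sets. Htr1b had r = -0.32 in the set low in Htr1b and -0.41 in the set high in it, and Htr1d -0.66 and -0.435. Htr1a, also higher in the PFC, had -0.09 and 0.80, Htr7 -0.19 and 0.21, and Htr1f 0.04 and -0.12. Htr2c, which did not pass over all libraries, had 0.305 and -0.77. Over all libraries, an r of 0.5 or higher was found for 3 of 9 receptors and 21% of all genes, and one of -0.5 or lower for 2 of 9 receptors and 22.5% of all genes, shares that rest on the same mixture.

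**Figure D4:**
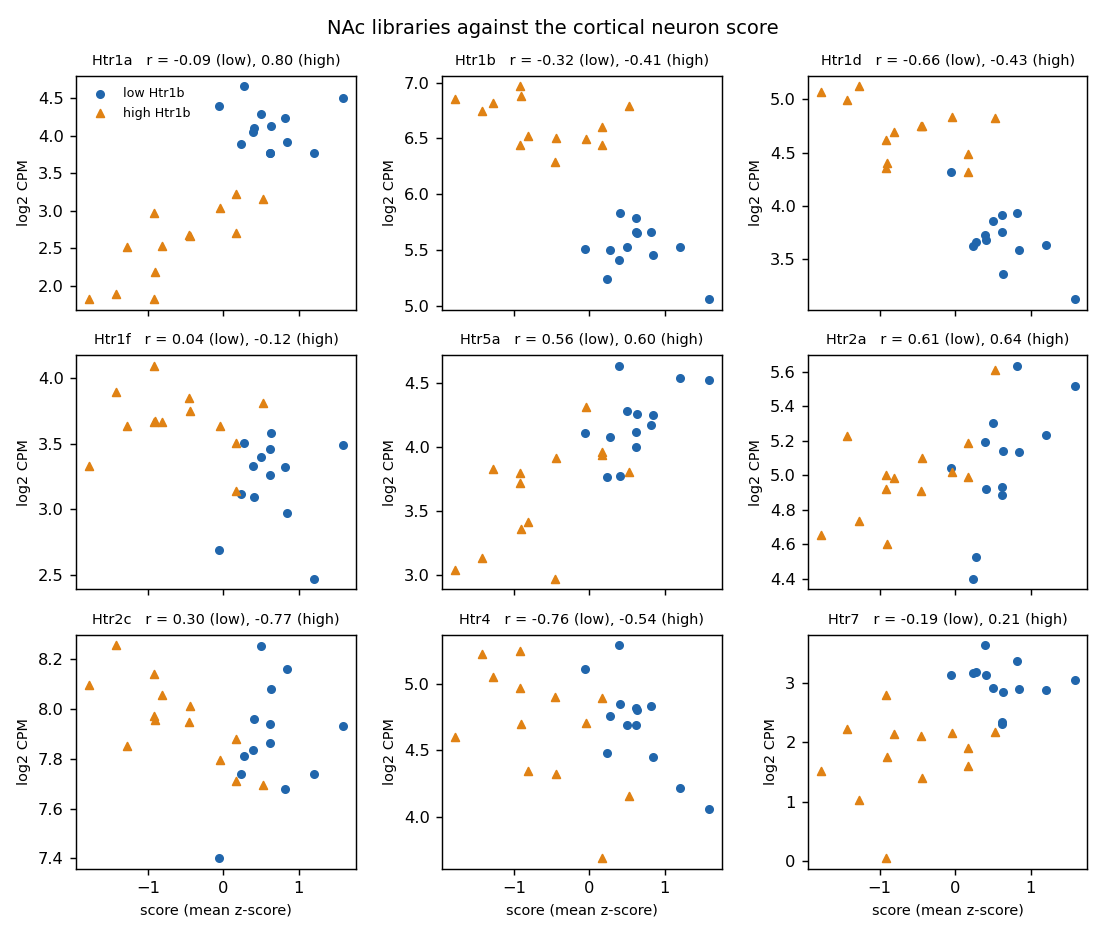
Log2 CPM of the 9 receptor transcripts in the 26 NAc libraries against the cortical neuron score of the library (mean z-score of 6 genes), with circles for the 13 libraries low in Htr1b, triangles for the 13 high in it, and Pearson's r within each set above the panel. Htr1b separates the sets because they were made from it, Htr1a separates them without overlap, and Htr5a increases along the score inside both (r = 0.56 and 0.60).

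NAc J1199 had the highest cortical neuron score and the lowest Htr1b and Htr1d levels. NAc J1018, with the lowest Htr1a and Htr7 and the highest Htr1b and Htr1f, ranked 22 of 26 in the score. Receptor transcripts of the same library were also compared with each other, as 93 pairs over the 3 regions chosen after the data had been seen and adjusted together. In the NAc, Htr1a and Htr1b had r = -0.32 and -0.66 within the sets low and high in Htr1b, Htr1a and Htr7 0.49 and 0.48, and Htr1b and Htr1d 0.46 and 0.32. In the SCN, 7 of 21 pairs passed with a positive r and 2 with a negative one. The share of all gene pairs passing in the SCN was not computed, so these counts show nothing particular to receptors. Htr1a and Htr1b had r = 0.72 there (rho = 0.67, adjusted p = 0.0033 by permutation), with 0.78 and 0.76 within the ranges of mouse numbers and 0.66 without the 2 libraries farthest from the Htr1a median. The sign was thus opposite to that within the NAc sets, and the difference was not tested. In the PFC, Htr1b and Htr7 had r = -0.83 (rho = -0.85, adjusted p = 0.00031 by permutation), with -0.79 and -0.86 within the ranges of mouse numbers and -0.79 without the 2 libraries farthest from the Htr1b median. Htr1b also had a gap in its level there, with r = -0.09 in the 6 libraries below it and -0.69 in the 11 above. Htr2c was split at its widest gap with at least 6 libraries on either side, and r was -0.62 and -0.63. A wider gap in Htr2c, above PFC J965 alone, was passed over. A split on Htr1b narrows the range of Htr1b inside each set, in both regions. The transcripts of a pair share a library and its scaling.

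Within the SCN, receptor transcripts were compared with a score of 9 SCN neuron genes, made of the peptide genes Avp, Vip, Grp, Nms and Prok2, the transcription factor genes Six6 and Lhx1, and Gpr176 and Syt10. Htr5a was higher in libraries with a higher score, and Htr2a, Htr1b, Htr7 and Htr4 were lower. Htr5a had r = 0.77 (rho = 0.83, n = 19, permutation p = 0.00017, adjusted p = 0.00071), 0.80 without the 2 farthest libraries and 0.98 and 0.65 within the ranges. Htr2a had r = -0.78 (rho = -0.81, adjusted p = 0.0002 by permutation), -0.77 without the 2 farthest libraries and -0.83 and -0.84 within the ranges. Htr7, although higher in the SCN than in the other regions, had r = -0.61 (rho = -0.70, adjusted p = 0.013 by permutation), -0.79 without the 2 farthest libraries and -0.81 and -0.52 within the ranges.

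Htr1b had r = -0.70 in the SCN (rho = -0.76, adjusted p = 0.0027 by permutation), -0.74 without the 2 farthest libraries and -0.68 and -0.77 within the ranges. Htr4 had r = -0.60 (rho = -0.56, adjusted p = 0.014 by permutation) and -0.66 and -0.60 within the ranges, but -0.34 without the 2 farthest libraries, SCN J1199 and SCN J1018, so it rests on those samples. Htr1a (r = -0.40, rho = -0.47, adjusted p = 0.15 by permutation) and Htr2c (r = -0.19, rho = -0.22, adjusted p = 0.47 by permutation) did not pass. An r of 0.5 or higher was found for 1 of 7 receptors and 4.37% of all genes, and one of -0.5 or lower for 4 of 7 receptors and 5.41% of all genes.

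**Figure D5:**
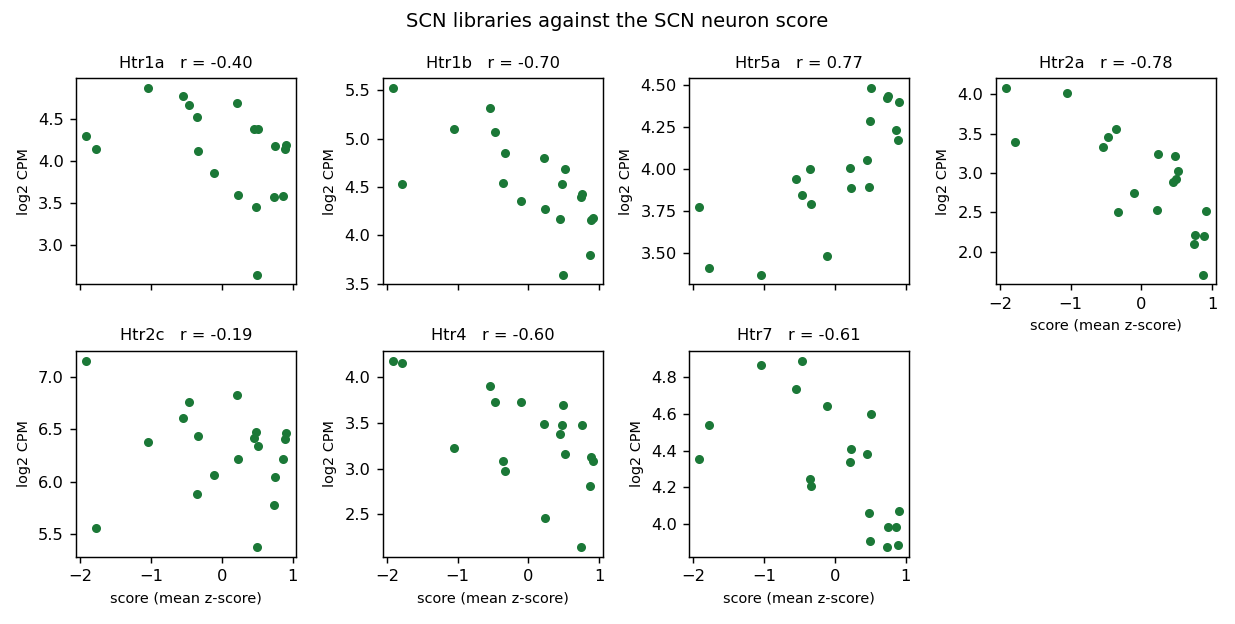
Log2 CPM of the 7 receptor transcripts in the 19 SCN libraries against the SCN neuron score of the library (mean z-score of 9 genes), a point per library, with Pearson's r above each panel. Htr5a increases along the score (r = 0.77), and Htr2a, Htr1b, Htr7 and Htr4 decrease (r from -0.78 to -0.60).

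In the PFC, where the Htr4 level was low, it was the 1 receptor of 9 that passed with a score of deep layer genes (r = 0.75, rho = 0.87, n = 17, permutation p = 0.00078, adjusted p = 0.0024). Its r was 0.62 without the 2 farthest libraries and 0.58 and 0.96 within the ranges. The genes of this score are not particular to cortex, since 5 of 8 had a higher level in NAc than in PFC libraries, as Htr4 did. An r of 0.5 or higher was found for 9.62% of all genes, and one of -0.5 or lower for 6.09% of all genes and 0 of 9 receptors.

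The genes most like a receptor in their level over the libraries of a region were found by Pearson's r of log2 CPM over all genes with a mean of at least 5 CPM. In the NAc (n = 26, 11429 genes), these were Nptx1 for Htr5a (r = 0.87), Hdx for Htr1f (r = 0.84), Fam126a for Htr4 (r = 0.77), 1700020I14Rik for Htr2a (r = 0.77) and Cdkl2 for Htr2c (r = 0.73). Some of these differed between the lower and upper ranges of mouse numbers, with r of 0.83 and 0.42 for Cdkl2 and 0.59 and 0.85 for 1700020I14Rik. For Htr1a, Htr1b, Htr1d and Htr7, whose levels followed the NAc sets, no most similar gene is named. In the SCN (n = 19, 11898 genes), they were Vsnl1 for Htr1a (r = 0.92), Negr1 for Htr1b (r = 0.92), Matr3 for Htr2c (r = 0.88), Tmem151b for Htr7 (r = 0.87) and Mmp14 for Htr5a (r = 0.87). In the PFC (n = 17, 11359 genes), Ado was most like Htr7 (r = 0.86) and Emc3 most like Htr2a (r = 0.82). Each is the highest of many correlations and is given as a description.

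Other genes of serotonin signaling were taken from lists. Over all genes, 23.7% were higher and 21.7% lower in the NAc than in the PFC, and the SCN had 33.1% higher and 31% lower than the NAc and 33.7% higher and 31% lower than the PFC. Of 15 genes of serotonin synthesis, transport and breakdown, 6 could be tested between NAc and PFC, where Qdpr, which recycles the cofactor of serotonin synthesis, was higher in the NAc (log2 fold change 0.88) and Maob, a monoamine oxidase, lower (-0.50). Maoa differed by -0.07 (edgeR adjusted p = 0.31). In the SCN, 5 of 6 were higher than in the NAc and 4 of 6 higher than in the PFC, among them Maoa (log2 fold change 0.80 and 0.73). Of 9 G protein alpha subunits tested, Gnal, the Golf subunit of striatal neurons, was higher in the NAc (2.44, NAc over PFC), and 3 were lower, Gnas (-1.09), Gnaz and Gnaq (both -0.43), while 5 did not pass both limits. The SCN had 4 of 9 higher and 2 lower than the NAc, and 2 higher and 3 lower than the PFC.

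Of 13 effector genes, only Adcy5, the striatal adenylyl cyclase, was higher in NAc than in PFC (log2 fold change 3.004), and 8 were lower, among them Adcy1 (-2.08) and the potassium channel gene Kcnj6 (-1.72) through which Gi/o receptors act. The median log2 fold change of this list was -1.38, against 0.02 over all genes tested. The SCN had 8 of 13 higher and 4 lower than the NAc, and 4 higher and 7 lower than the PFC. Of 12 receptor partners and editing enzymes, 5 were lower in NAc than in PFC and the other 7 did not pass both limits, with S100a10, a partner of Htr1b, at -1.91 and Mpdz, a partner of Htr2c, at -1.07. The editing enzymes Adar (-0.12, edgeR adjusted p = 0.24) and Adarb1 (0.17, edgeR adjusted p = 0.074) did not pass. The SCN had 3 of 12 higher and 6 lower than the NAc, and 1 higher and 8 lower than the PFC.

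Of the receptor genes outside the 10, Htr2b, Htr3a and Htr3b have no row in either table. Htr5b has a row in the SCN table alone, with a lowest, median and highest level of 0.56, 4.53 and 17.6 CPM.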

How the data were processed

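Libraries from punched SCN, NAc and PFC were prepared with a Smartseq HT kit and sequenced as paired ends. The authors used HISAT2 to align reads to GRCm38 and HTSeq (union mode) to count them per gene, and deposited raw gene counts that were not normalized, the SCN in a file of its own. The submitters' processing notes name FastQC 0.11.7. Rows the tables leave out were not analysed here, and 1 gene of the cortical neuron list is not reported here and was left out of its score, which ended the call of Htr4 in the NAc. No per-sample column was left unused.

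Regions and mouse numbers came from the labels. Regions were compared with edgeR 4.0.16 (R 4.3.3; quasi-likelihood test, TMM, filterByExpr, Benjamini-Hochberg adjustment), NAc against PFC within their table and the SCN in a fit of all 62 libraries over shared genes. SE is the log2 fold change divided by the square root of F. No block was used in the main comparison. The 17 mice with NAc and PFC pair their libraries, since each pair is 1 animal. Correlations of the paired deviations ranged from -0.470 to 0.262 and were over 0.1 in 7. Relations used log2 CPM with a prior count of 2 and two-sided permutation tests with 100000 resamples. No libraries of a region were duplicates. In simulated counts with 200 genes changed 2-fold, edgeR recovered 200 of 200 with 9 false calls among 11569 genes (NAc against PFC) and 200 of 200 with 9 among 11133 (SCN against NAc). The simulation changed only genes above a floor of mean count, gave all genes the same dispersion and drew libraries independently. It therefore does not cover counts as low as those of Htr1d in the PFC, or mice shared between regions.

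A receptor's level was split at its widest gap among those leaving at least 6 libraries on either side, so wider gaps near the ends were passed over. Within sets split by Htr1b in the NAc, and by Htr1b or Htr2c in the PFC, r was also computed. These steps were chosen after the values were seen. Mouse numbers up to J1021 and from J1140 were treated as possible batches. The alternatives were DESeq2 1.42.0, its size factors, other filters, no mitochondrial or ribosomal RNA genes, total count scaling, a prior count of 0.5, rank correlation, the replicate block, each range of mouse numbers and leaving out named libraries. Leaving out the Slc17a7-high libraries from the SCN comparisons, NAc J1199 with NAc J1018 throughout, and the unblocked SCN fit of the same mice were chosen after seeing the data. The receptor genes and all lists were chosen with earlier results of these data known. Named genes are the receptors, members of the lists and, for most receptors, the gene with the highest r. Figures and tables used Python 3.11.15 with numpy 2.4.6 and pandas 2.3.3.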

Additional observations from a re-analysis of the deposited data

How the results depend on the processing

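Between NAc and PFC, 97 of 99 values of single receptors under the alternatives kept their direction and call, and the exceptions were Htr7 with the replicate block and without the Slc17a7-high NAc libraries (log2 fold change -0.55 in both), now called. In the SCN comparisons 132 of 140 did. Htr5a over the NAc reversed with the mouse as a replicate block (-0.00786) and in the same mice without it (-0.0084), at a size far below its SE. Htr1b over the PFC was called with DESeq2 (0.33, adjusted p = 0.0476) and without the Slc17a7-high NAc libraries (0.33), and Htr1a over the PFC without those libraries (-0.42), without SCN J1199 and SCN J1140 (-0.45) and with the replicate block (-0.65). Htr1a over the NAc was no longer called in the upper range of mouse numbers (0.48). The replicate block, with the pairing of mice, changed no other receptor's call.

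Over all libraries of a region, 7 NAc, 1 PFC and 5 SCN relations passed. The lower range of mouse numbers gave 4, 2 and 1, and the upper range 6 in the NAc and 3 in the SCN, with fewer libraries; without the 2 farthest libraries 2 passed in the PFC. Relations that reversed were those of Htr1a in the PFC (-0.0221 by rank, -0.736 in the lower range, -0.312 without the 2 farthest libraries), Htr2a in the PFC (-0.0905 in the upper range) and Htr2c in the SCN (0.559 in the lower range, 0.164 without SCN J1199 and SCN J1140), none of which had passed. Within the NAc sets low and high in Htr1b, Htr7 (-0.19 and 0.21), Htr1a (-0.09 and 0.80), Htr2c (0.305 and -0.77) and Htr1f (0.04 and -0.12) did not keep a sign. Htr2a in the NAc no longer passed in either range or without NAc J1199 and NAc J1018 (r = 0.41). Scaling by the total count moved 22 of 25 median levels by more than 1 SD, whereas DESeq2 size factors moved 0 of 25 and of 7 SCN levels 0 moved once SCN J1199 and SCN J1140 were dropped. The total count includes mitochondrial and ribosomal RNA genes, which the joint scale leaves out, so CPM on it is a different unit. Depth limits Htr1d and Htr4 in the PFC, with median counts of 6 and 41 reads.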
